A study of Homo sapiens with 12 samples.

Results

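The lysosome's own machinery was followed through 47 listed genes: 16 subunits of its proton pump, 7 cathepsins, 10 other acid hydrolases, 3 soluble cofactors, 8 membrane proteins and the 3 transcription factors TFEB, TFE3 and MITF. The list was fixed by gene name, but it and the further gene lists below were chosen with earlier results of these data known. Each gene was read from a single probe set, the one with the highest mean over the 12 arrays among those that name 1 gene. Such a probe set existed for 45 of the 47 genes, and all 45 were among the 10784 genes tested, of 19775 genes on the array with such a probe set. ATP6V1F, a pump subunit, and GLB1, the lysosomal beta-galactosidase, lay only on probe sets shared with another gene and have no value here.

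RNA came from HK-2, an established human line of immortalized proximal tubular epithelial cells, grown in a medium supplemented with EGF, insulin, transferrin and hydrocortisone. Cultures near confluence were given Fk, a compound that the labels do not spell out and whose dose is not given in the sources used here, or its vehicle. There were 4 groups of 3 arrays: control at 12 h, Fk at 12 h, control at 48 h and Fk at 48 h. Each array is labelled a biological replicate, and all cultures were of the same cell line in the same medium. The series asks which expression changes mark exposure to compounds toxic to the kidney.

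The lysosome breaks down proteins, glycans, lipids and nucleic acids delivered by endocytosis and autophagy, and proximal tubule cells, which take up filtered protein, are rich in it. Its acid interior is set by the vacuolar ATPase, in which a cytosolic V1 sector hydrolyses ATP and turns a ring of the membrane sector V0 that carries protons. Many genes of this system share a regulatory element, an E-box with extended flanks, that is bound by TFEB, TFE3 and MITF, factors held in the cytoplasm while mTORC1 at the lysosome is active and moved to the nucleus when it is not. These arrays measure the factors' transcripts, not where the proteins are.

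The E-box core CACGTG was looked for in the 250 bases before each gene's start, since many lysosomal genes are known to share that element. It reads the same on both strands. Of the 47 genes, 35 had a window in the RefSeq promoter table (GRCh38.p14), and 11 of them (31.4%) held the core. Among 8921 tested genes with a window 11.8% held it, and among all 35116 windows, each counted singly, 6.34%. A gene was counted if any of its windows held the core, so the shares of windows have another unit than the shares of genes. A core with at least 3 of the 4 flanking bases of the extended element (GT before, AC after) stood before 6 of the 35 genes (17.1%), against 3.32% of tested genes with a window and 1.28% of all windows. Those 6 are shown, read 5′ to 3′ on the gene's own strand, each cut from the stretch before the gene's start with the CACGTG cores in capitals. ATP6V1G1 is a stalk subunit of the pump, GAA the acid alpha-glucosidase, MCOLN1 a calcium channel, ATP6V0D1 the rotor subunit of V0, CTSA a carboxypeptidase and LAMP1 a main glycoprotein of the membrane.
ATP6V1G1, chr9:114587684-114587743, plus strand: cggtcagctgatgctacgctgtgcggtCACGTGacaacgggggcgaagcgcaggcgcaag
GAA, chr17:80101478-80101580, plus strand: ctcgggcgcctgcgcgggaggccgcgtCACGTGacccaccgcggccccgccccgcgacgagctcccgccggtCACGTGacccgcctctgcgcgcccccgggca
MCOLN1, chr19:7522556-7522623, plus strand: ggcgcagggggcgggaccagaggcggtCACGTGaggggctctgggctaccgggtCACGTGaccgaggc
ATP6V0D1, chr16:67481184-67481243, minus strand: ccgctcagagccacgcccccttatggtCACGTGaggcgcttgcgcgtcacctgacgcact
CTSA, chr20:45891266-45891334, plus strand: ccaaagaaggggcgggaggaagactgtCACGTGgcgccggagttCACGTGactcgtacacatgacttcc
LAMP1, chr13:113297020-113297238, plus strand: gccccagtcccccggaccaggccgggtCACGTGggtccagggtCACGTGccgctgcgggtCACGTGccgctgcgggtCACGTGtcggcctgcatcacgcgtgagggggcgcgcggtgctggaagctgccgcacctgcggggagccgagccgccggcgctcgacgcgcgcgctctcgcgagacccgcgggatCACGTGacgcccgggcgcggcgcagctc

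Both cores of GAA have all 4 flanking bases, the nearer one beginning 31 bases before the start and the other 76. LAMP1 holds 5 cores, between 28 and 192 bases before its start. The MCOLN1 stretch also lies within another annotated gene model. The other 5 genes with a core and fewer matching flanks were ATP6V0B, CD63, CTSD, CLN3 and NEU1. A match of letters is a description, not a binding site or a cause of any value given here.

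Across the series the 12 arrays were alike in scale, with medians between 2.85 and 2.94 on the log2 scale, but Fk at 12 h replicate 3 stood apart. It correlated at 0.942 and 0.946 with its group mates, which correlated at 0.994 with each other, and 1660 genes, 4 of the listed genes among them, lay more than 1 log2 unit from those mates. The 3 arrays of each 48 h group were also more spread (0.961 to 0.986) than the 12 h controls (0.992 to 0.994). Of 14 proximal tubule markers 11 were measured, and only DPP4 and SLC3A1 reached a log2 value of 4 on all arrays, while 8, among them LRP2, CUBN and AQP1, lay under 4 on all. All 6 epithelial markers reached 4 on all arrays. Between 12 h and 48 h 2 of the 6 passed an adjusted p of 0.05 in the controls: EPCAM rose by 0.58 (adjusted p = 0.0492) and KRT8 fell by 0.59 on the log2 scale (adjusted p = 0.0227). Under Fk KRT8 fell by 0.56 (adjusted p = 0.0258). CDH1 had the largest difference of the 6, 1.20 in the controls and 1.41 under Fk, and did not pass. Its control arrays went from 6.77, 6.64 and 5.91 to 8.45, 7.57 and 6.89, without overlap. The 7 markers of leukocytes and macrophages, cells rich in lysosomal proteins, lay under 4 on all arrays, with summed levels of 16.9 to 17.3 at 12 h and 16.8 to 17.2 at 48 h. Of the fibroblast markers COL1A1, DCN and LUM reached 4 on all arrays, with summed levels of the 5 markers between 29.6 and 33.4 over the 12 arrays. COL1A1 fell by 0.87 between the times under Fk (adjusted p = 0.0104) and measured -0.23 in the controls (adjusted p = 0.411). LUM measured -0.89 under Fk, with widely spread 48 h arrays of 7.90, 9.09 and 9.80, and did not pass. The part of these marker changes in the results on the lysosomal genes was not tested.

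**Figure D1:**
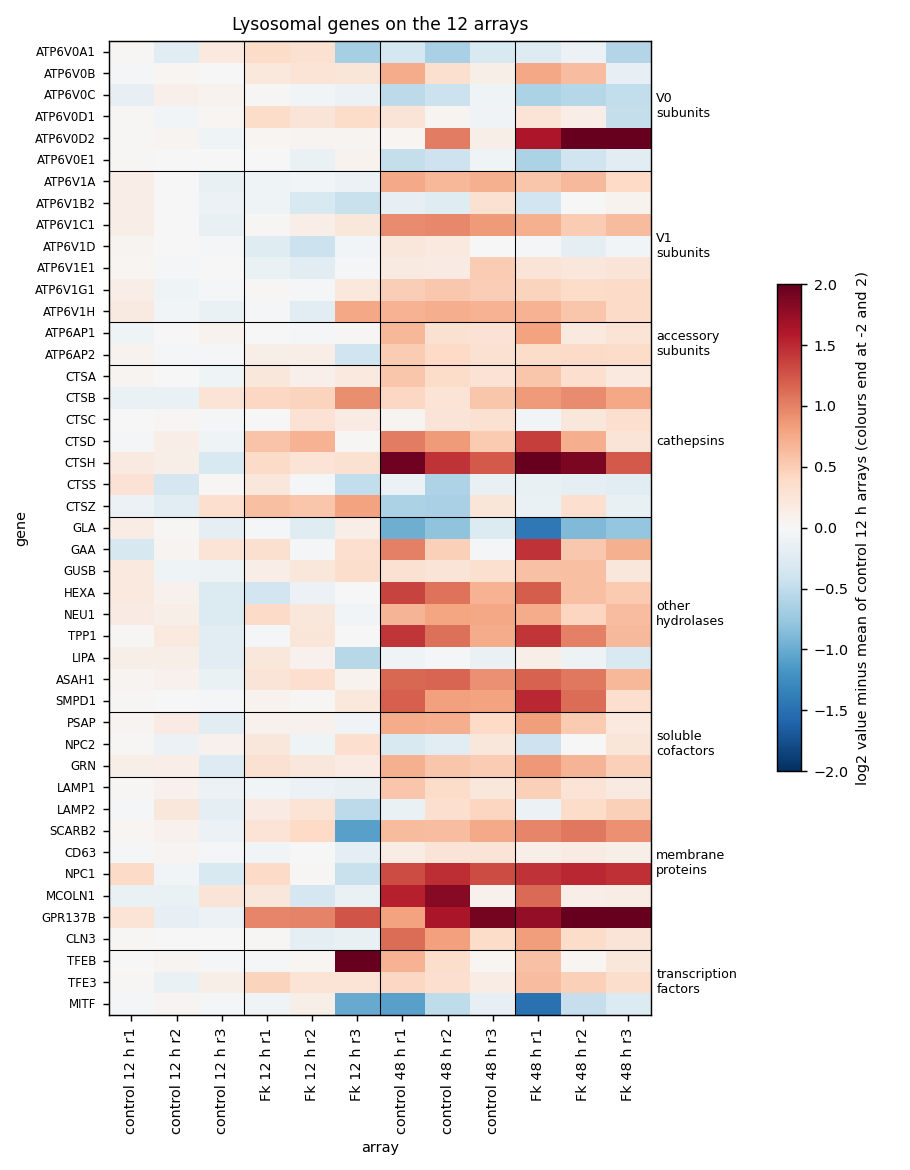
Heat map of the 45 measured genes (rows, by role) on the 12 arrays (columns); colour is the log2 value minus the gene's mean on the control 12 h arrays, red above and blue below, with colours ending at -2 and 2. Most rows turn red at 48 h in control and Fk columns alike, ATP6V0D2 is deep red only on the 3 Fk 48 h arrays, and the Fk 12 h replicate 3 column departs from its neighbours at TFEB, MITF and SCARB2.

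The listed genes differed mainly between the times. In the vehicle controls 16 of the 45 genes rose between 12 h and 48 h and 1, GLA, fell (limma, Benjamini-Hochberg adjusted p under 0.05 over all genes tested). Over all 10784 genes 10.6% rose and 10.9% fell. The median change of the 45 was 0.40 on the log2 scale against 0.01 for all genes, and 35 of the 45 changes were positive. For 28 genes all 3 control arrays at 48 h lay above all 3 at 12 h, and for 4 below, where the shares over all genes were 25.1% and 24.9%. Of the 42 genes that reached a log2 value of 4 on all 12 arrays 15 rose and 1 fell, where 10.5% and 11.0% of all such genes did. The 3 others were ATP6V0D2, SMPD1 and GAA. The count of called genes ran from 9 to 11 when a 12 h control array or control 48 h replicate 1 or 2 was left out. It was 21 without control 48 h replicate 3 and 22 without Fk at 12 h replicate 3, which enters through the shared estimate of spread. The shares of all genes called in these fits are not given beside the counts, so their shifts are no result about the listed genes. Time in culture cannot be told apart from anything else that differed between the 12 h and 48 h harvests, and in bulk RNA fewer cells of a kind cannot be told apart from less RNA per cell.

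**Figure D2:**
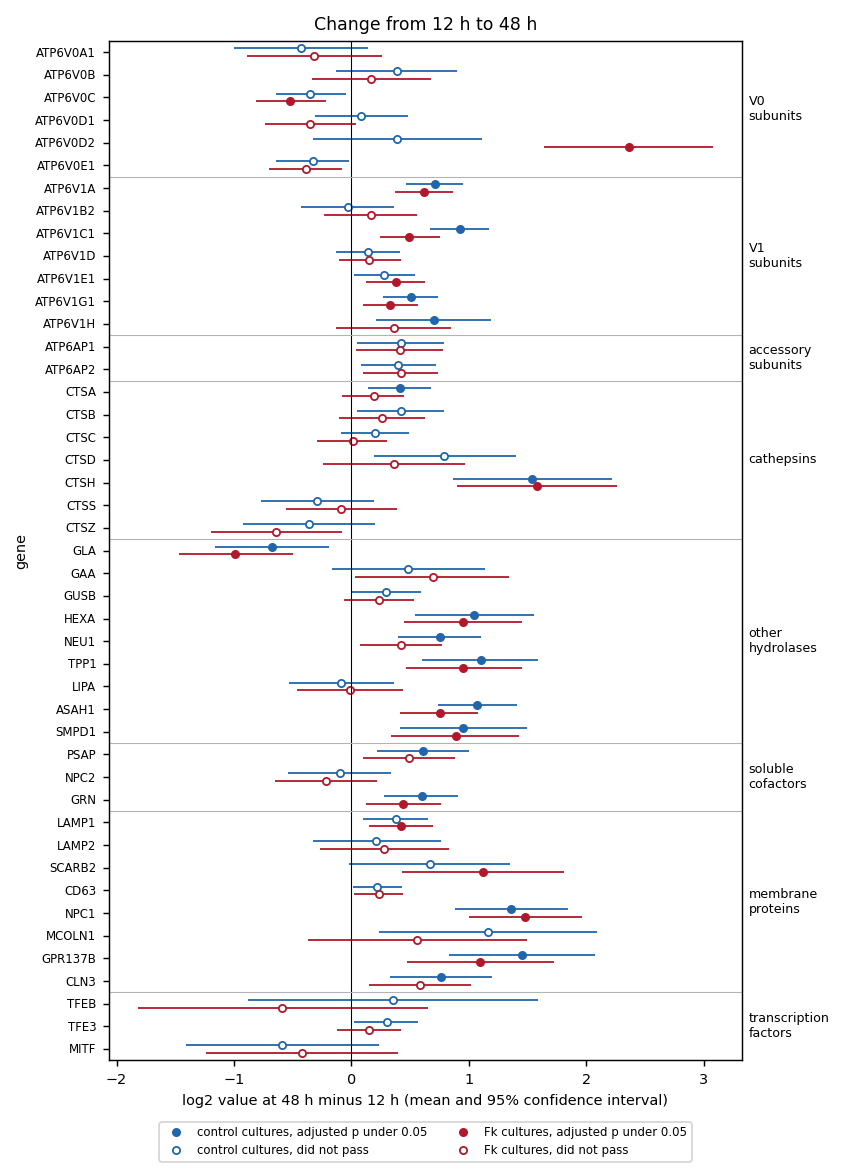
Change from 12 h to 48 h for each gene (log2 value at 48 h minus 12 h, limma mean with 95% confidence interval), in control cultures (blue) and Fk cultures (red), 3 arrays per group; filled points passed an adjusted p of 0.05. In the controls 16 genes rose and GLA fell, with ATP6V1 subunits, hydrolases and membrane proteins to the right and no V0 subunit passing.

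The 2 sectors of the proton pump are given separately, and the difference between them was not tested. Of the 7 measured V1 subunits 4 rose in the controls (median 0.51), and of the 6 V0 subunits none passed (median -0.12, with 3 changes negative). ATP6V1C1, a stalk subunit involved in joining V1 to V0, measured 11.08, 10.95 and 10.79 at 12 h and 11.89, 11.90 and 11.79 at 48 h. All 48 h arrays lay above all 12 h arrays, a rise of 0.92 (SE 0.11, adjusted p = 0.00107) or 1.89-fold. ATP6V1A, the subunit that hydrolyses ATP, went from 10.85, 10.72 and 10.56 to 11.46, 11.37 and 11.42. That rise of 0.71 (SE 0.11, adjusted p = 0.0028) was again without overlap. ATP6V1G1, whose upstream E-box is shown, measured 11.69, 11.47 and 11.53 at 12 h and 12.05, 12.10 and 12.05 at 48 h, a rise of 0.51 (SE 0.11, adjusted p = 0.00973). ATP6V1H, a regulatory subunit of V1, went from 10.00, 9.77 and 9.69 to 10.51, 10.54 and 10.51, a rise of 0.70 whose adjusted p of 0.0464 lay near the threshold. The first 3 of these kept their call without any single array, while ATP6V1H kept it only without Fk at 12 h replicate 2 (adjusted p = 0.0349) or replicate 3 (0.00291). Its adjusted p was highest, 0.139, without control 12 h replicate 3. The ATP6V1H call was also lost with centring on the 75th percentile (0.0907), with no filter on low values (0.095) and with the mean of its 3 probe sets, which gave 0.24 (0.0971). The other probe sets of ATP6V1H had low means of 2.68 and 2.03. The rotor subunit ATP6V1D (0.14), the ATP-binding subunit ATP6V1B2 (-0.03) and the stalk subunit ATP6V1E1 (0.28) did not pass.

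Within V0 the smallest p-values belonged to negative changes. ATP6V0C, the proteolipid that forms the proton-carrying ring, measured 11.26, 11.53 and 11.50 at 12 h and 10.90, 11.00 and 11.34 at 48 h, a difference of -0.35 (adjusted p = 0.0905). The small membrane subunit ATP6V0E1 measured 12.84, 12.80 and 12.80 and then 12.33, 12.40 and 12.72, a difference of -0.33 (adjusted p = 0.119). Its other probe sets disagreed in direction, with -0.05, -0.29, -0.43, 0.17, 0.12 and -0.03. For ATP6V0E1 the arrays of the times did not overlap, for ATP6V0C they did. ATP6V0D1, the broadly expressed form of the rotor subunit, measured 11.63, 11.55 and 11.65 and then 11.87, 11.67 and 11.54, a difference of 0.08 within the spread of its arrays. ATP6V0A1 (-0.43) and ATP6V0B (0.39) did not pass. Both accessory subunits lay higher without overlap and did not pass: ATP6AP1, which helps assemble the pump, by 0.42 (adjusted p = 0.0992) and ATP6AP2, also known as the prorenin receptor, by 0.40 (adjusted p = 0.0707). ATP6AP1 read 9.97, 10.05 and 10.12 at 12 h and 10.71, 10.35 and 10.34 at 48 h. ATP6AP2 read 13.11, 13.02 and 13.00 at 12 h and 13.54, 13.44 and 13.35 at 48 h.

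Among the cathepsins 2 of 7 rose in the controls (median of the 7, 0.41). CTSH, an aminopeptidase, had the largest rise of all 45 genes. It measured 10.36, 10.30 and 9.87 at 12 h and 12.13, 11.62 and 11.40 at 48 h, a rise of 1.54 (SE 0.31, adjusted p = 0.00774) or 2.90-fold that held without any single array. CTSA, which besides its peptidase activity shields beta-galactosidase and NEU1 in a complex, went from 10.91, 10.85 and 10.77 to 11.40, 11.22 and 11.14. All its 48 h arrays lay higher, a rise of 0.41 (adjusted p = 0.0375) that was called in 5 of the 12 fits with an array left out and had its highest adjusted p, 0.135, without control 48 h replicate 1. CTSD, the main aspartic protease, measured 8.39, 8.54 and 8.32 and then 9.43, 9.26 and 8.93. That difference of 0.79, without overlap, had an adjusted p of 0.0622. CTSB, an abundant cysteine protease, measured 10.32, 10.31 and 10.72 and then 10.87, 10.73 and 11.01, a difference of 0.42 (adjusted p = 0.0995). CTSC (0.20), CTSS (-0.29) and CTSZ (-0.36) did not pass. Without Fk at 12 h replicate 3 in the shared spread, CTSD (adjusted p = 0.0373) and CTSB (0.0366) passed.

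The other hydrolases held the most changes, 5 rises and 1 fall among 9 measured (median 0.75). TPP1, a tripeptidyl peptidase, measured 9.52, 9.69 and 9.27 at 12 h and 10.93, 10.60 and 10.24 at 48 h, a rise of 1.10 (SE 0.22, adjusted p = 0.00846). ASAH1, the acid ceramidase, went from 11.01, 11.04 and 10.81 to 12.10, 12.11 and 11.86, a rise of 1.07 (SE 0.15, adjusted p = 0.00188). HEXA, the alpha chain of beta-hexosaminidase, went from 9.34, 9.24 and 8.87 to 10.50, 10.24 and 9.84, a rise of 1.04 (SE 0.23, adjusted p = 0.0113). Each of these 3 enzymes was at about 2-fold its 12 h level, with folds of 2.14, 2.11 and 2.06, and none had overlapping arrays. NEU1, the lysosomal sialidase, measured 11.76, 11.72 and 11.32 and then 12.28, 12.39 and 12.37, a rise of 0.75 (adjusted p = 0.0101). SMPD1, the acid sphingomyelinase, measured 3.84, 3.82 and 3.79 and then 5.02, 4.64 and 4.63, a rise of 0.95 (adjusted p = 0.022). SMPD1 passed the filter on low values through its 48 h arrays and 1 Fk array at 12 h, so that its rise was in part required by the filter. Its call held in 7 of 12 fits with an array left out, with the highest adjusted p, 0.0857, without control 48 h replicate 1. The HEXA rise was 0.28 (adjusted p = 0.0461) as the mean of its 4 probe sets, of which the other 3 lay under a mean of 3.

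GLA, alpha-galactosidase A, was the exception. It measured 11.67, 11.54 and 11.34 at 12 h and 10.55, 10.72 and 11.25 at 48 h, and it fell by 0.68 on the log2 scale (SE 0.22, adjusted p = 0.0497). The arrays of the times did not overlap, though control 48 h replicate 3 at 11.25 lay close to the lowest 12 h array at 11.34. Its direction was the same in all 22 alternatives, but the call sat at the threshold and was made in 10 of them. It was lost with a further quantile normalization (adjusted p = 0.0565) and with centring on the 75th percentile (0.0627), and it was weakest without control 48 h replicate 1 (-0.53, adjusted p = 0.173). GAA (0.48), GUSB, the beta-glucuronidase (0.29), and LIPA, the acid lipase (-0.09), did not pass.

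PSAP and GRN, precursors cut into small proteins inside the lysosome, both rose. PSAP, from which the saposins that help lipid hydrolases arise, measured 13.20, 13.31 and 12.93 at 12 h and 13.88, 13.86 and 13.54 at 48 h, a rise of 0.61 (adjusted p = 0.0325) called in 7 of 12 fits with an array left out, with the highest adjusted p, 0.12, without control 12 h replicate 3. GRN, progranulin, went from 11.73, 11.74 and 11.35 to 12.32, 12.17 and 12.12, a rise of 0.60 (adjusted p = 0.0164) called in 10 of 12. Neither overlapped between times. The third cofactor, the cholesterol carrier NPC2, measured -0.10 (adjusted p = 0.749).

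All 8 membrane proteins had positive changes (median 0.71), and 3 rose. GPR137B, a multipass protein of the lysosomal membrane, measured 6.32, 5.88 and 5.93 at 12 h and 6.85, 7.68 and 7.96 at 48 h, a rise of 1.45 (SE 0.28, adjusted p = 0.00698). NPC1, which exports cholesterol from the lysosome, went from 11.37, 10.93 and 10.68 to 12.30, 12.47 and 12.30, a rise of 1.36 (SE 0.22, adjusted p = 0.00297) or 2.57-fold. CLN3, a membrane protein mutated in juvenile Batten disease, went from 8.34, 8.31 and 8.31 to 9.43, 9.14 and 8.68, a rise of 0.76 (adjusted p = 0.0224). The NPC1 rise was 0.44 (adjusted p = 0.0417) as the mean of its probe sets, of which the others had low means of 3.76, 2.66 and 2.34. The NPC1 and GPR137B calls held without any single array and that of CLN3 in 7 of 12. The main glycoproteins of the membrane did not pass. LAMP1 measured 13.69, 13.74 and 13.55 and then 14.21, 14.02 and 13.88, without overlap, a difference of 0.38 (adjusted p = 0.0521). LAMP2 measured 12.09, 12.35 and 11.94 and then 11.99, 12.47 and 12.56, overlapping, a difference of 0.21 (adjusted p = 0.574). Its other probe sets gave 0.34, 0.38 and 0.36. MCOLN1 had 1 of the larger differences, 1.16, but its arrays at 48 h, 8.20, 8.46 and 6.73, were widely spread (12 h: 6.50, 6.51 and 6.90, adjusted p = 0.0723). SCARB2, the receptor that carries beta-glucocerebrosidase to the lysosome (0.67), and the tetraspanin CD63 (0.22) did not pass.

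None of the transcripts of the 3 factors passed over time. TFE3 read 10.22, 10.05 and 10.30 at 12 h and 10.61, 10.52 and 10.34 at 48 h, a difference of 0.30 (adjusted p = 0.109) without overlap. MITF read 11.50, 11.59 and 11.51 and then 10.44, 11.02 and 11.36, lower without overlap by a widely spread amount (-0.59, adjusted p = 0.273). TFEB read 4.96, 5.02 and 4.94 and then 5.66, 5.32 and 5.01, overlapping at its lowest 48 h array (0.35, adjusted p = 0.687). Set beside the promoter count, 4 of the 10 risen genes with a window held a CACGTG core (40%), and so did 7 of the 23 others (30.4%), a difference of few genes that was not tested.

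The Fk cultures gave an account of the time course on arrays that the controls do not share, a comparison added after seeing the data. The 2 time courses are not independent in full, since the fit shares 1 estimate of spread. The deviations of same-numbered Fk and control arrays at 48 h also correlated, at 0.798 for replicate 1 and 0.606 for replicate 3, with -0.025 for replicate 2. Of the 45 genes 15 rose between 12 h and 48 h under Fk and 2 fell, where 11.5% and 11.7% of all genes did. Among the 42 genes at 4 or more on all arrays 13 rose and 2 fell, against 11.4% and 11.8%. The rises shared 11 genes with the 16 of the controls, 68.8% of the control list and 73.3% of the Fk list, and all 16 genes that rose in the controls had a positive change under Fk. These shares were not computed over all genes tested, so the overlap is no result about the listed genes. CTSH (1.58), NPC1 (1.48), GPR137B (1.09), TPP1 (0.95), HEXA (0.95) and ASAH1 (0.75) were in both lists, and the fall of GLA was -0.99. ATP6V0C, which had not passed in the controls, fell by 0.52 under Fk, from 11.46, 11.37 and 11.31 to 10.80, 10.86 and 10.93, without overlap (adjusted p = 0.0217). SCARB2 rose by 1.12 (adjusted p = 0.0272) from 11.26, 11.39 and 9.91 to 11.97, 12.05 and 11.91, and by 0.65 (adjusted p = 0.00375) without the low Fk 12 h replicate 3. ATP6V0D2 rose by 2.36 and is described with the Fk comparison at 48 h. The V1 sector held 4 of the rises. ATP6V1A went from 10.63, 10.65 and 10.60 to 11.27, 11.36 and 11.11 (0.62, adjusted p = 0.00453), and ATP6V1C1 from 10.97, 11.08 and 11.16 to 11.65, 11.45 and 11.58 (0.49, adjusted p = 0.0137). ATP6V1E1, which had not passed in the controls, went from 11.39, 11.30 and 11.48 to 11.78, 11.75 and 11.78 (0.38, adjusted p = 0.0399), and ATP6V1G1 from 11.58, 11.52 and 11.77 to 12.00, 11.93 and 11.95 (0.33, adjusted p = 0.0456). In all 4 the 48 h arrays lay above all 12 h arrays. The ATP6V1C1 call held in 11 of 12 fits with an array left out, that of ATP6V1E1 in 4 and that of ATP6V1G1 in 1. Called on all arrays together, the count of 17 was 6 when only the 6 Fk arrays were fitted. It was 9 and 11 without Fk at 12 h replicate 1 and 2, and 7 and 9 without Fk at 48 h replicate 1 and 2. The shares of all genes called in these fits are not given either.

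The remaining rises under Fk had arrays as follows. CTSH measured 10.56, 10.45 and 10.48 at 12 h and 12.78, 12.06 and 11.41 at 48 h, with replicate 1 highest at both times. TPP1 went from 9.48, 9.74 and 9.51 to 10.93, 10.50 and 10.15, and HEXA from 8.76, 9.03 and 9.15 to 10.36, 9.75 and 9.67. ASAH1 went from 11.21, 11.28 and 11.02 to 12.13, 12.01 and 11.61. Each of these enzymes was without overlap between the times. As means of their probe sets HEXA gave 0.23 (adjusted p = 0.074) and TPP1 0.59 (0.0579) and lost the call. SMPD1 measured 3.89, 3.85 and 4.03 and then 5.32, 4.94 and 4.16 (0.89, adjusted p = 0.0271), where replicate 3 lay lowest at 48 h and close to its 12 h level. GRN went from 11.91, 11.83 and 11.78 to 12.47, 12.29 and 12.08 (0.44, adjusted p = 0.048), a call that held in 2 of 12 fits with an array left out. The SMPD1 call held in 8 of 12. NPC1 went from 11.38, 11.02 and 10.55 to 12.44, 12.49 and 12.45, and LAMP1 from 13.60, 13.55 and 13.51 to 14.14, 13.93 and 13.84 (0.42, adjusted p = 0.034). Neither overlapped, and the NPC1 arrays were close together at 48 h. The NPC1 call held in all 12 fits with an array left out and that of LAMP1 in 6, with an adjusted p of up to 0.121. GLA moved the other way, from 11.48, 11.28 and 11.66 to 10.09, 10.63 and 10.74, all lower.

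**Figure D3:**
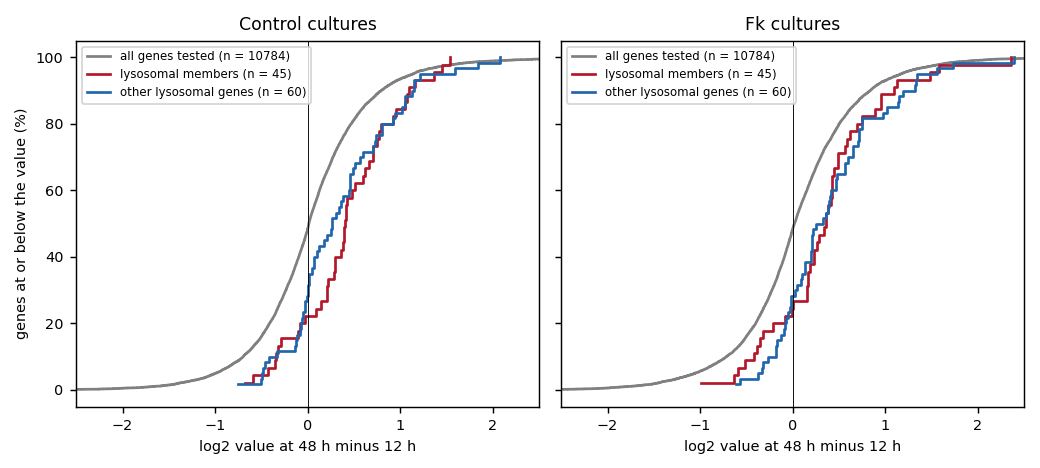
Cumulative distribution of the change from 12 h to 48 h (log2 value at 48 h minus 12 h, horizontal; percent of genes at or below that value, vertical) in control (left) and Fk cultures (right), for all 10784 genes tested (grey), the 45 lysosomal genes (red) and 60 other lysosomal genes (blue). The red and blue curves run to the right of the grey one, with control medians of 0.40 and 0.27 against 0.01.

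Other genes of the lysosome also held more rises than falls. A further 84 genes for lysosomal enzymes, transporters, delivery and signalling were listed, 73 had a probe set of their own and 60 were tested. In the controls 17 of these 60 rose and 0 fell (23 and 4 at an unadjusted p under 0.05), with a median of 0.27. Over all genes 10.6% rose and 10.9% fell, and 17.8% and 18.6% were higher and lower unadjusted. Under Fk 19 of the 60 rose and 0 fell (27 and 3 unadjusted), with a median of 0.29, where 11.5% of all genes rose and 11.7% fell (18.9% and 18.8% unadjusted). The largest rise was that of RRAGD, a Rag GTPase that helps tether mTORC1 to the lysosome: 7.59, 7.72 and 6.79 at 12 h and 9.63, 9.46 and 9.22 at 48 h, a rise of 2.07 (adjusted p = 0.00328). CTNS, the cystine exporter, went from 7.80, 7.37 and 7.40 to 9.97, 9.78 and 8.34, a rise of 1.84 (adjusted p = 0.0158). SLC17A5, the sialic acid exporter, went from 8.83, 8.61 and 8.59 to 10.57, 10.07 and 10.16, a rise of 1.59. None of these 3 overlapped between times. By group, 7 of 18 hydrolases and cofactors rose, among them LGMN (1.15), MANBA (1.21) and NAGLU (1.12), as did 4 of 17 membrane and transport genes and 2 of 5 delivery genes, one of them the mannose 6-phosphate receptor IGF2R (1.01). Of 12 signalling genes 4 rose: RRAGD, RRAGC (0.92), and FLCN (0.70) and FNIP1 (1.05), whose proteins form the complex that acts on RagC and RagD. None of the 4 further pump subunits tested and none of the 4 further cathepsins passed in the controls. Under Fk 2 of these 4 cathepsins rose, CTSF by 0.65 (adjusted p = 0.0491) and CTSO by 1.01 (adjusted p = 0.0437, with overlapping arrays). None of the 4 pump subunits passed there.

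No listed gene passed the test for Fk against control at either time, and the lowest p-values at 12 h belonged to GPR137B, CTSB, TFE3 and CTSZ, all higher. At 12 h 0 of 45 passed, as did 0% of all genes, with 4 higher and 0 lower at an unadjusted p under 0.05, where 4.4% and 2.32% of all genes were. The median Fk effect was 0.05 over the 45 genes and 0.01 over all. For 10 genes all Fk arrays lay above all control arrays, and for 1, ATP6V1D, below (all genes, 9.91% and 6.49%). Without Fk at 12 h replicate 3 the unadjusted counts were 5 and 1 and still 0 passed. The median half-width of the 95% intervals over all genes tested was 0.447 log2 units. These comparisons share their control arrays with the control time course.

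**Figure D4:**
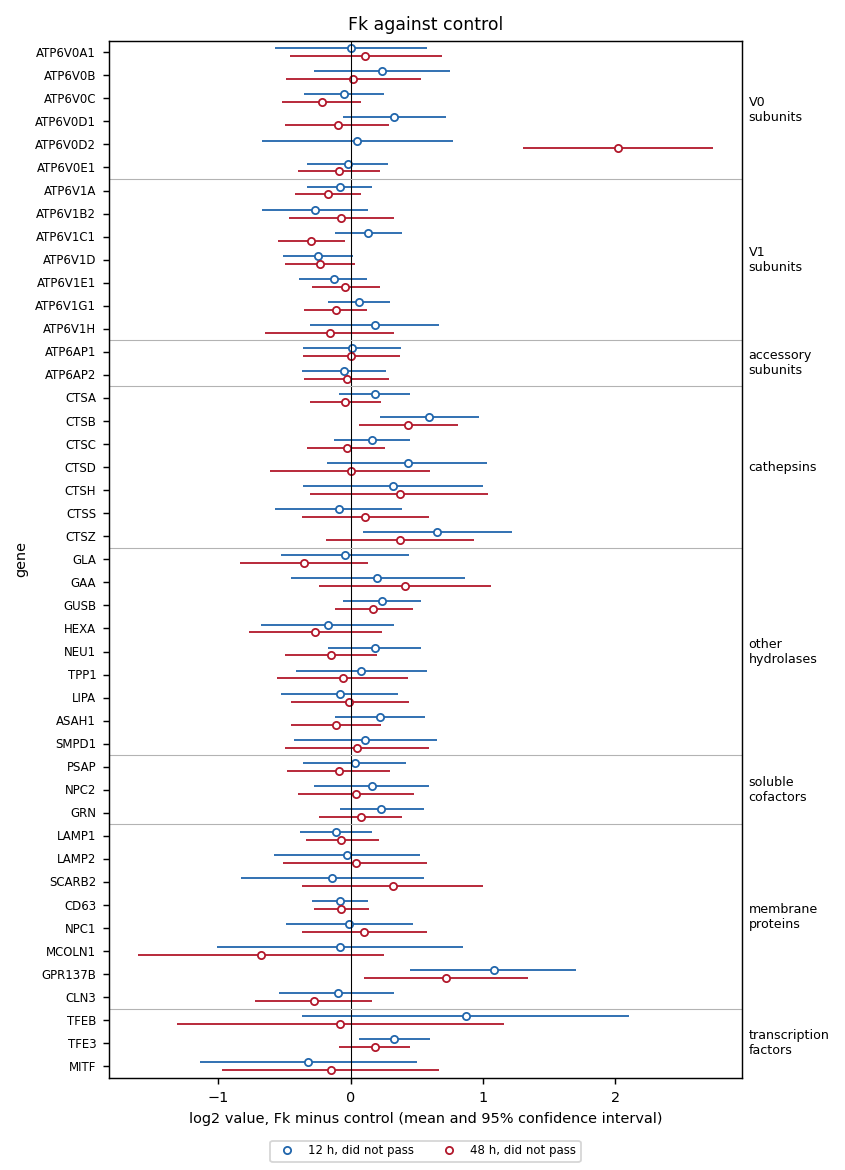
Fk effect on each gene (log2 value, Fk minus control, limma mean with 95% confidence interval) at 12 h (blue) and 48 h (red), 3 arrays per group; all points are open since none passed an adjusted p of 0.05. Most intervals span 0, and ATP6V0D2 at 48 h (2.02), GPR137B at 12 h (1.08) and CTSB at both times lie to the right.

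The listed cathepsins held 4 of the 10 genes without overlap at 12 h (CTSA, CTSB, CTSH and CTSZ), and their median was 0.32. The 4 further cathepsins tested had a median of -0.01 at 12 h, and 0 of them were without overlap. CTSB measured 10.87, 10.89 and 11.38 under Fk against 10.32, 10.31 and 10.72 in the controls, so replicate 3 was the highest array in both groups. The difference was 0.59 (SE 0.17, adjusted p = 0.654), and 0.43 without Fk replicate 3. Its 4 other probe sets gave 0.55, 0.25, 0.00 and 0.33. CTSZ, a carboxypeptidase, measured 9.06, 9.02 and 9.27 against 8.35, 8.24 and 8.80, a difference of 0.65 (SE 0.25, adjusted p = 0.706). CTSD read 8.98, 9.11 and 8.43 against 8.39, 8.54 and 8.32. Here replicates 1 and 2 lay above all controls and replicate 3 among them, a difference of 0.43 (adjusted p = 0.791) that was 0.63 without replicate 3.

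GPR137B had the largest 12 h difference. It measured 7.02, 7.04 and 7.31 under Fk and 6.32, 5.88 and 5.93 in the controls, 1.08 apart (SE 0.28, adjusted p = 0.648) or 2.11-fold. All 3 Fk arrays were higher, and the difference was 0.98 without Fk replicate 3. The other 7 membrane proteins lay between -0.14 and -0.01. LAMP1 read 13.60, 13.55 and 13.51 under Fk against 13.69, 13.74 and 13.55, a difference of -0.11 (adjusted p = 0.878), and LAMP2 read 12.29, 12.40 and 11.61 against 12.09, 12.35 and 11.94 (-0.03, adjusted p = 0.99). Both overlapped.

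The pump at 12 h showed no common direction, with 8 positive and 7 negative differences among 15 subunits. ATP6V0D1 read 11.98, 11.87 and 11.98 under Fk, above all controls by 0.33 (adjusted p = 0.762), and ATP6V0B read 9.92, 9.98 and 9.95 against 9.68, 9.75 and 9.71, a difference of 0.24 (adjusted p = 0.85). ATP6V1D read 11.26, 11.08 and 11.46 against 11.57, 11.50 and 11.48, lower without overlap by 0.25 (CI -0.51 to 0.02, adjusted p = 0.759). ATP6V1B2 read 10.59, 10.36 and 10.23 against 10.80, 10.66 and 10.55, a difference of -0.27 (adjusted p = 0.791). The accessory subunits lay near 0, ATP6AP1 at 10.06, 10.03 and 10.08 (0.01) and ATP6AP2 at 13.15, 13.18 and 12.64 (-0.05), the last being Fk replicate 3. Among hydrolases the smallest p-values were those of GUSB (10.12, 10.21 and 10.33 against 10.17, 9.90 and 9.88, a difference of 0.24) and ASAH1 (11.21, 11.28 and 11.02 against 11.01, 11.04 and 10.81, a difference of 0.22), with adjusted p of 0.782 and 0.8. Both overlapped. Of the cofactors GRN read 11.91, 11.83 and 11.78, above all controls by 0.23 (adjusted p = 0.789), and NPC2 read 12.23, 11.93 and 12.35 against 12.04, 11.90 and 12.10, overlapping (0.16, adjusted p = 0.893).

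At 48 h again 0 of 45 passed, as did 0% of all genes, with 3 higher and 1 lower unadjusted against 3.24% and 1.95% of all genes. The median was -0.04 over the 45 genes and 0.02 over all. Arrays did not overlap for 3 genes that were higher (ATP6V0D2, CTSB and SCARB2) and 4 that were lower, all of them V1 subunits, where the shares over all genes were 6.14% and 4.02%.

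ATP6V0D2, the form of the V0 rotor subunit found in kidney, epididymis and osteoclasts, had the largest difference. It measured 4.20, 5.32 and 5.45 on the Fk arrays and 2.62, 3.60 and 2.69 on the controls at 48 h, while at 12 h all 6 arrays lay between 2.49 and 2.64. Only the 3 Fk arrays at 48 h were above 4, and control 48 h replicate 2 was the highest of the rest. The Fk effect at 48 h was 2.02 (SE 0.33, 95% CI 1.30 to 2.74, adjusted p = 0.148), and at 12 h 0.05 (CI -0.67 to 0.77). Since the controls lay below the filter level of 4, near the low end of these values, no fold is given for this gene. Its other 2 probe sets differed by 2.25 and 2.58 at 48 h. The gene passed the filter only because of those 3 arrays, so that it had to differ, and its counts are no support for the group. The adjusted p fell to 0.0401 without Fk at 48 h replicate 1 (a difference of 2.42), to 0.00305 with the mean of its probe sets (2.29) and to 0.0144 with array weights (1.95). It was highest, 0.801, in a fit of the 48 h arrays alone, and 0.564 without Fk at 48 h replicate 2 (1.86). Over time it rose in the Fk cultures by 2.36 (adjusted p = 0.00145) and measured 0.39 in the controls (adjusted p = 0.424). The difference between the Fk effects at the times was 1.97 (CI 0.95 to 2.99, adjusted p = 0.996). ATP6V0D1, the other form of the same subunit, read 11.88, 11.75 and 11.14 under Fk at 48 h, overlapping the controls (-0.10, adjusted p = 1).

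**Figure D5:**
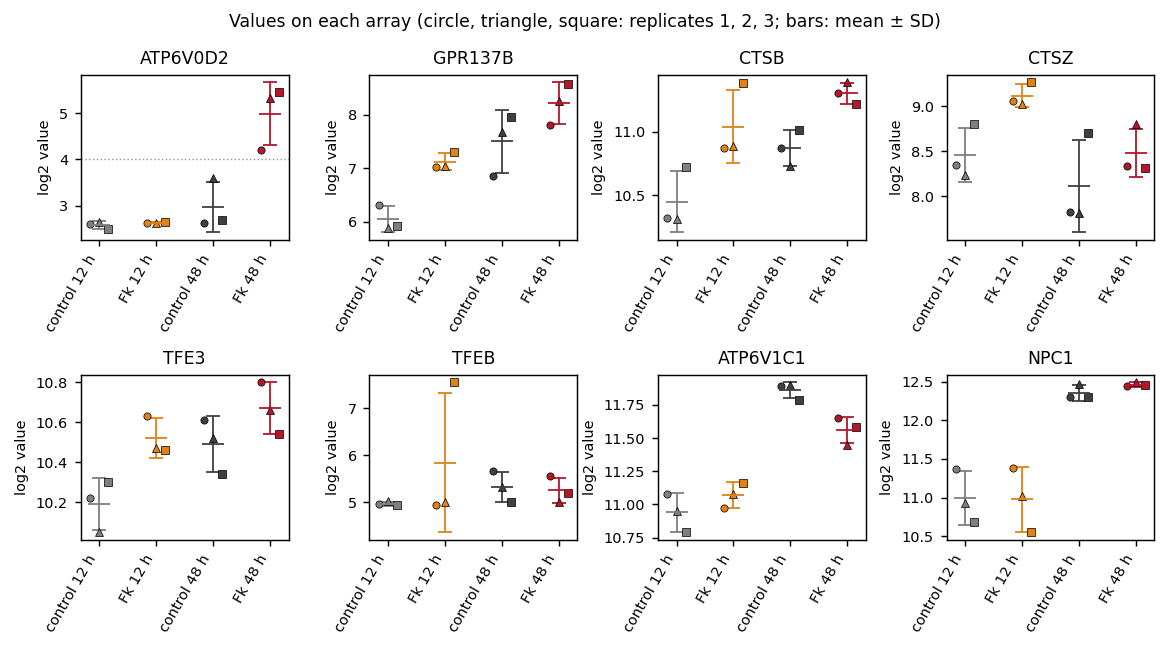
Log2 values on each array of 8 genes in the 4 groups (circle, triangle and square are replicates 1, 2 and 3; horizontal mark and bar are the mean ± SD, n = 3); the dotted line in the ATP6V0D2 panel is the filter level of 4. ATP6V0D2 exceeds 4 only on the Fk 48 h arrays, ATP6V1C1 and NPC1 separate by time, and the TFEB mean of Fk at 12 h is raised by replicate 3 alone.

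All 7 measured V1 subunits of the list lay lower under Fk at 48 h, with a median of -0.16. Over all 10784 genes tested 4977 differences were negative. Of the 4 further pump subunits tested 3 lay higher, with a median of 0.28 over the 4. One of the 3 was the V1 form ATP6V1E2 (0.21), which reached a log2 value of 4 on only 3 arrays. ATP6V1C1 measured 11.65, 11.45 and 11.58 against 11.89, 11.90 and 11.79 in the controls, a difference of -0.30 (SE 0.11, adjusted p = 0.897). ATP6V1D measured 11.48, 11.33 and 11.45 against 11.73, 11.70 and 11.52, a difference of -0.23 (SE 0.12, adjusted p = 1). ATP6V1A (-0.17) and ATP6V1G1 (-0.11) were the other subunits without overlap, and ATP6V1B2, ATP6V1E1 and ATP6V1H overlapped. None of the 7 passed, and with ATP6V1C1 the gap was 1.10-fold in the opposite direction at 12 h (0.13). The difference between its Fk effects at the times was -0.43 (adjusted p = 0.996). The 3 other probe sets of ATP6V1C1 also read lower under Fk at 48 h, by -0.34, -0.63 and -0.47. At 12 h they read 0.23, -0.89 and -0.56, so the probe sets disagreed in direction there. ATP6V0C, of V0, read 10.80, 10.86 and 10.93 against 10.90, 11.00 and 11.34 (-0.22, adjusted p = 1), overlapping. The accessory subunits ATP6AP1, at 10.85, 10.24 and 10.32 (0.00), and ATP6AP2, at 13.41, 13.43 and 13.41 (-0.03), overlapped their controls too.

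CTSB was higher under Fk at both times. At 48 h it measured 11.30, 11.39 and 11.22 against 10.87, 10.73 and 11.01, without overlap, a difference of 0.43 (SE 0.17, adjusted p = 0.903). Its 4 other probe sets gave 0.41, 0.09, 0.03 and 0.25 at 48 h. CTSZ read 8.33, 8.80 and 8.31 against 7.82, 7.81 and 8.70, and overlapped through control replicate 3 (0.37, adjusted p = 1). CTSD read 9.80, 9.14 and 8.67 against 9.43, 9.26 and 8.93, with no difference of the means beyond rounding and a CI of -0.61 to 0.60.

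GPR137B measured 7.81, 8.26 and 8.58 under Fk at 48 h and 6.85, 7.68 and 7.96 in the controls, a difference of 0.72 (SE 0.28, adjusted p = 0.903). Each group held a low replicate 1, and the lowest Fk array lay below the highest control. The difference was 0.40 without control 48 h replicate 1. MCOLN1 lay lower, at 7.77, 6.78 and 6.79 against 8.20, 8.46 and 6.73, overlapping through control replicate 3 (-0.68, adjusted p = 1). It was -1.22 without control 48 h replicate 3 and -0.35 without replicate 2. SCARB2 read 11.97, 12.05 and 11.91 against 11.63, 11.60 and 11.75, higher without overlap by 0.32 (CI -0.37 to 1.00, adjusted p = 1). LAMP1 (-0.07) and LAMP2 (0.04) had Fk arrays of 14.14, 13.93 and 13.84 and of 12.02, 12.50 and 12.61, which overlapped the controls. The hydrolases with the smallest p were GLA, at 10.09, 10.63 and 10.74 against 10.55, 10.72 and 11.25 (-0.35, adjusted p = 1), and GAA, at 5.53, 4.63 and 4.80 against 5.09, 4.56 and 4.07 (0.41, adjusted p = 1). Both overlapped. Of the cofactors GRN read 12.47, 12.29 and 12.08 (0.08) and PSAP 13.98, 13.66 and 13.34 (-0.09), and both overlapped their controls.

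Averaged over the times, the Fk effect had 5 genes higher at an unadjusted p under 0.05 and 1 lower, where 5.35% and 2.59% of all genes were. None of the 45 passed, and 0.00927% of all genes did, a single gene outside the list. The 5 were ATP6V0D2 (1.04), GPR137B (0.90, CI 0.46 to 1.34, adjusted p = 0.277), CTSB (0.51, CI 0.25 to 0.78, adjusted p = 0.277), CTSZ (0.51) and TFE3 (0.26). The gene that was lower was ATP6V1D (-0.24, CI -0.43 to -0.05, adjusted p = 0.497). With array weights 5 of these 6 genes passed: ATP6V0D2 (adjusted p = 0.0184), GPR137B (0.0187), CTSB (0.0189), CTSZ (0.0238) and, lower by a difference of -0.33, ATP6V1D (0.0219). The share of all genes that passed with array weights is not given here, so this count is no result about the listed genes. Over the other alternatives the adjusted p of GPR137B and CTSB ran up to 0.672 and 0.674. With the mean of its probe sets the CTSB effect was 0.29 (adjusted p = 0.663). The difference between the Fk effects at the times had an unadjusted p under 0.05 for 2 genes, ATP6V0D2 and ATP6V1C1, where 3.31% of all genes did. None of the 45 and 0% of all genes passed. ATP6V0D2 passed the filter on low values only through its Fk arrays at 48 h. Its place in each of these counts is therefore no support for the group.

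Of the factors, TFE3 was the one whose Fk arrays at 12 h all lay above the controls. It measured 10.63, 10.47 and 10.46 against 10.22, 10.05 and 10.30, a difference of 0.33 (SE 0.12, adjusted p = 0.686), and at 48 h 10.80, 10.66 and 10.54 against 10.61, 10.52 and 10.34, overlapping (0.18, adjusted p = 1). TFEB read 4.95, 5.01 and 7.55 under Fk at 12 h and 4.96, 5.02 and 4.94 in the controls. Its difference of 0.87 (SE 0.56, adjusted p = 0.791) rested on replicate 3, was 0.01 without it, and was -0.08 on its other probe set. At 48 h TFEB read 5.55, 5.01 and 5.20 against 5.66, 5.32 and 5.01 (-0.08, adjusted p = 1). MITF read 11.46, 11.65 and 10.52 at 12 h against 11.50, 11.59 and 11.51, a difference of -0.32 (adjusted p = 0.878) that was 0.02 without replicate 3. At 48 h MITF read 10.04, 11.07 and 11.26 against 10.44, 11.02 and 11.36, with a low replicate 1 in both groups (-0.15, adjusted p = 1). The 60 further lysosomal genes gave 0 calls at either time, with 4 higher and 4 lower unadjusted at 12 h and 2 and 1 at 48 h. Over all genes tested 4.4% were higher and 2.32% lower unadjusted at 12 h, and 3.24% and 1.95% at 48 h. Among them RRAGD at 12 h differed by 0.91 (adjusted p = 0.673) on 7.78, 8.02 and 9.04 against 7.59, 7.72 and 6.79, without overlap and with replicate 3 highest under Fk and lowest in the controls.

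The listed genes were unevenly spread over the replicates at 48 h. Replicate 3 was the lowest of its 3 arrays for 25 of the 45 genes (55.6%) in the controls and for 25 of 45 under Fk, against 38.8% and 45.0% of all genes tested. Replicate 1 was the highest for 20 genes (44.4%) in the controls and 26 (57.8%) under Fk, against 37.7% and 41.2%. CTSH, TPP1, HEXA, CLN3 and CTSD each had replicate 1 highest and replicate 3 lowest in both 48 h groups. On those genes control 48 h replicate 3 lay nearest the 12 h level. In the 12 h controls replicate 3 was the lowest for 27 of the 45 genes (60%), against 28.6% of all genes tested. What set the arrays apart was not tested.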

How the data were processed

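Biotin-labelled cRNA from the total RNA of 12 HK-2 cultures was read on Affymetrix arrays. The series' table holds the authors' deposited log2 values, made with GCRMA according to the submitters' processing notes, a method that corrects background by probe sequence and brings arrays to 1 distribution. Its version, and whether further arrays were normalized with these 12, are not given in the sources used here. Of 54675 probe sets, 41097 name 1 gene, 1801 several and 11777 none in the platform annotation.

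Genes whose chosen probe set lay at log2 4 or above on 3 or more arrays were tested. The model was limma (3.58.1, under R 4.3.3): 1 mean for each of the 4 groups, spread shared by all 12 arrays, eBayes moderation with 8 residual and 2.44 prior degrees of freedom. Tests were two-sided. Adjusted p-values are Benjamini-Hochberg over all 10784 genes, with 0.05 as threshold, and they measure the spread between arrays of a group. Intervals have 95% confidence. "Rose" and "fell" are used of changes past the threshold. The scripts were tested on simulated data. Precision is limited by having 3 arrays a group.

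The members and gene lists were chosen with earlier results of these data known. Named in each comparison were members past the threshold, the 2 smallest p-values of a role group where none passed, and always ATP6V0D2, ATP6V0D1, CTSB, CTSD, LAMP1, LAMP2, TFEB, TFE3 and MITF. Alternatives changed the filter, probe set choice, normalization, moderation, array weights, threshold, the arrays fitted and a replicate block, and left out each array. Promoter windows came from RefSeq. Tables and plots were made in Python 3.11.15 (pandas 2.3.3, matplotlib 3.10.9).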

Additional observations from a re-analysis of the deposited data

How the results depend on the processing

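The Fk comparisons kept 0 called genes in most settings. At 12 h array weights gave 1 (GPR137B). At 48 h array weights, the mean of a gene's probe sets and leaving out Fk at 48 h replicate 1 gave 1 each, ATP6V0D2. The 12 fits without an array ran from 0 to 1. ATP6V0D2 passed the filter on low values only through its Fk arrays at 48 h, so its calls are no support for the group. The mean Fk effect gave 5 with array weights and 1 with the mean of probe sets (ATP6V0D2). For control cultures over time, 17 genes were called, 31 with array weights, 9 without probe sets ending in _x_at or _s_at, where 32 genes were left to test, and 9 to 22 without an array. For Fk cultures over time, 17 were called, 27 with array weights, 10 without those probe sets, 6 on the Fk arrays alone and 7 to 18 without an array. The shares of all genes called in each setting are not set beside these counts. The shifts are therefore no result about the listed genes, and their cause was not tested. Array weights used the gene-by-gene method, since the default did not converge, and gave Fk at 12 h replicate 3 a weight of 0.121. No call changed direction.

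The deviations of same-numbered Fk and control arrays correlated at 0.041, 0.265 and 0.163 at 12 h and at 0.798, -0.025 and 0.606 at 48 h. The labels state no pairing, and the numbers were not taken to pair the cultures in the main fit. At 48 h replicates 1 and 3 did share deviations between Fk and control, and what they had in common was not tested. With the replicate block 18 genes were called over time in controls and 20 under Fk, and 0 for each Fk effect, their mean and their difference. The block ended the calls of ATP6V1H in controls (adjusted p = 0.0601) and ATP6V1G1 under Fk (0.0555). A replicate block within time, and that block on only the groups compared (added after seeing the data), gave 0 too. With the block within time the mean Fk effect had an adjusted p of 0.0961 for GPR137B and 0.129 for CTSB, against 0.277 for each in the main fit. An adjusted p of 0.1 gave 24 in each time course. These counts also stand without the shares over all genes. For the median gene the 95% interval of the Fk effect at 12 h reached 0.447 log2 units to either side.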
